A study of Mus musculus with 6 samples.

Results

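The 7 genes described here encode the meiosis-specific subunits of the cohesin ring (Rec8, Rad21l, Smc1b and Stag3), the HORMA domain proteins of the meiotic chromosome axis (Hormad1 and Hormad2) and the ATPase that remodels HORMA domain proteins (Trip13). They were chosen by name, and each matched 1 of the 49671 gene rows of the deposited count table through its Ensembl identifier in GENCODE M21. All 7 passed the filter on low counts, which left 18040 genes for testing. Each library came from whole testis of the C57BL/6J strain, taken at an age of 12 days post-partum; 3 were from Ankrd31-/- mice (knockout, KO) and 3 from Ankrd31+/+ mice (wild type). The labels name no other allele and no treatment, and do not describe how Ankrd31 was disrupted. The comparison asks whether loss of Ankrd31, which encodes a partner of the machinery that makes meiotic DNA breaks on the chromosome axis, changes the RNA levels of that axis.

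Cohesin is a ring built from an SMC heterodimer, a kleisin that closes it and a STAG subunit bound to the kleisin. In germ cells entering meiosis, SMC1B, the kleisins REC8 and RAD21L and the subunit STAG3 join or replace their ubiquitous counterparts SMC1A, RAD21, STAG1 and STAG2, and the rings form the core of the axis from which chromatin loops extend. HORMAD1 and HORMAD2 load onto this axis before homologous chromosomes synapse; HORMAD1 recruits IHO1, a cofactor of break formation, and TRIP13 removes both HORMADs where synapsis is complete. TRIP13 also acts in dividing cells, where it remodels the spindle checkpoint protein MAD2.

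Whole testis mixes germ cells of several stages with somatic cells, so fewer cells of a type and less RNA per cell cannot be told apart in these libraries. The libraries held 21014060 to 22706296 counts assigned to genes. Levels are given in CPM, the counts of a gene relative to its library's effective size. Ankrd31 had 40.8, 33.2 and 38.0 CPM in KO replicates 1, 2 and 3, against 84.9, 52.3 and 63.2 CPM in wild-type replicates 1, 2 and 3. Every KO library lay below every wild-type library, and because the counts cover the whole gene this checks the genotype labels only in part. Germ cell and Sertoli cell markers were present in every library, with sums of 1236 to 1438 CPM in KO and 1166 to 1476 CPM in wild type over Ddx4, Dazl, Mael and Tdrd1, and of 1738 to 1917 CPM in KO and 1751 to 2085 CPM in wild type over 7 Sertoli genes such as Sox9 and Amh. Of 7 spermatid genes, Prm1, Prm2 and Tnp2 had 0 counts in all 6 libraries. A count of 0 allows up to 0.132 to 0.143 CPM per library, for counting error only. The spermatid gene Tnp1 had 0.273 to 0.586 CPM in KO and 0.331 to 0.589 CPM in wild type. This spermatid list summed to 3.51 to 3.85 CPM in KO and 3.03 to 4.26 CPM in wild type. Wild-type replicate 3 stood apart in markers of the epididymis and rete, with a summed level of 60.2 CPM against 9.61 to 13.9 CPM in KO and 8.24 to 12.6 CPM in the other wild-type libraries. KO replicate 2 stood apart in Leydig cell markers, with a summed level of 744 CPM. KO replicates 1 and 3 had 345 and 239 CPM, and the wild-type libraries 320 to 372 CPM. Erythroid markers were highest in wild-type replicate 2, at 95.4 CPM. They summed to 60.3 and 59.2 CPM in wild-type replicates 1 and 3, and to 60.0 to 68.7 CPM in KO. Fold changes without wild-type replicate 3 or without KO replicate 2 are given with the comparison of the genotypes.

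The 7 genes lie on 7 different autosomes, and none shares exonic bases with another gene of the count table. In mm10, Rec8 spans chr14:55618037-55625395 on the plus strand, with 17 merged exons, and Rad21l spans chr2:151645404-151668533 on the minus strand, with 13. Smc1b spans chr15:85064691-85131957 on the minus strand with 25 exons, and Stag3 spans chr5:138280240-138312393 on the plus strand with 32. Hormad1 lies at chr3:95559677-95587671 on the plus strand, Hormad2 at chr11:4345814-4441105 on the minus strand, and Trip13 at chr13:73911347-73937767 on the minus strand. The counts cover all annotated exons of each gene, untranslated parts included. The promoters of the 4 genes whose levels varied together most closely (below) are shown here, since in somatic cells the repressor E2F6 is known to keep Smc1b and Stag3 silent. They come from RefSeq on GRCm38.p6 (the assembly of mm10) and run from 250 bases before to 50 bases after the annotated transcript start, read 5′ to 3′ on the gene's strand. The windows are chr15:85131908-85132207, minus strand; chr5:138280259-138280558, plus strand; chr3:95559427-95559726, plus strand, the more upstream of its 2 annotated starts; and chr11:4441033-4441332, minus strand. The Stag3 window lies inside the gene span given above, which begins at 138280240, so RefSeq and the counted gene place its start differently. Motif positions are counted from the RefSeq start. Capitals mark matches to the motifs listed after the sequences.
Smc1b: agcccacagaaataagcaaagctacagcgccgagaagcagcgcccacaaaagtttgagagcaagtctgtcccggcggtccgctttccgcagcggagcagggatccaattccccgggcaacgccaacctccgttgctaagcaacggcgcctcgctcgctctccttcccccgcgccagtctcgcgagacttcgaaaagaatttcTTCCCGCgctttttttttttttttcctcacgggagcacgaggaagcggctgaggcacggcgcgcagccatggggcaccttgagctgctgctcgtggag
Stag3: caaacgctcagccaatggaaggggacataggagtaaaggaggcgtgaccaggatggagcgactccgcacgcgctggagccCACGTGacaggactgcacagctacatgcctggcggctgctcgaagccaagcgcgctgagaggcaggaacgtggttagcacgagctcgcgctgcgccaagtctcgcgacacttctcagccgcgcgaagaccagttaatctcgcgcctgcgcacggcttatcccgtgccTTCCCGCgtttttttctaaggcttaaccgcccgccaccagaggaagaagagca
Hormad1: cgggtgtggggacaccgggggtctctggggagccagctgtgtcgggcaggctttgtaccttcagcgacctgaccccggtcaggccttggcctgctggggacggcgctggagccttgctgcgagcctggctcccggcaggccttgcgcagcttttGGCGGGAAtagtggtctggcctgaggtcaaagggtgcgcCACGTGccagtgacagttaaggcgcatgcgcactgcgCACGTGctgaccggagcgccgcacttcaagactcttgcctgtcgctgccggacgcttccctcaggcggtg
Hormad2: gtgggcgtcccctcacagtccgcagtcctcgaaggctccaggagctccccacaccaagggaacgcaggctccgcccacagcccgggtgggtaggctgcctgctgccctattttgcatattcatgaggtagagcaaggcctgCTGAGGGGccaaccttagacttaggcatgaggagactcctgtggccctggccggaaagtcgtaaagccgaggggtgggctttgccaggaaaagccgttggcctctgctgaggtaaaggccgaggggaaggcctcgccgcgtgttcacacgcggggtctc

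Smc1b, Stag3 and Hormad1 each held the E2F-type sequence GCGGGAA on either strand, which 4.6% of the 32851 promoter windows of the same length held; this sequence was added to the search after the promoters had been read. In Smc1b the match lay on the opposite strand at -48 to -42 from the start, in Stag3 on the opposite strand across the start at -3 to 4, and in Hormad1 on the gene's strand at -95 to -89. The related sequence GGCGGGA, present in 11.3% of windows, occurred in Hormad1 at -96 to -90, where it overlaps the first match by all but 1 base. The E-box CACGTG, present in 7.15% of windows, occurred in Stag3 at -170 to -165 and in Hormad1 at -57 to -52 and -20 to -15. The sequence CNCCTCAG, linked to the meiotic entry factors STRA8 and MEIOSIN and present in 7.94% of windows, occurred in Hormad2 alone of the 7, on the opposite strand at -109 to -102. Both strands were searched for every motif, and these letters were absent from the windows of Rec8, Rad21l and Trip13. The Rad21l window was poor in G and C, at 29.0%, against 58.3% to 67.3% in the other 6 and a median of 52.7% over all windows. A match is a description of letters and not a measured binding site.

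None of the 7 genes passed edgeR's quasi-likelihood test between Ankrd31-/- and wild-type testes (0 of 7 at an adjusted p under 0.05, and 0 of 7 at an unadjusted p under 0.05). With the replicate number as a block, 0 of 7 passed and 1 of 7 (Smc1b) had an unadjusted p under 0.05, against 7.48% of all genes. The KO and wild-type ranges overlapped for every one of the 7. Over all 18040 genes 0% passed, 2.07% (374 genes) had an unadjusted p under 0.05, and 3.09% and 3.5% had KO libraries that lay entirely above or entirely below the wild-type libraries. DESeq2 and limma voom called 0 of the 7 as well, while over all genes DESeq2 called 2 (Ankrd31 and the small nuclear RNA gene Rn7sk; 242 at an unadjusted p under 0.05) and voom 0 (382 unadjusted). The log2 fold changes (KO over wild type) were above 0 for 6 of the 7 genes, with a median of 0.11, against 47.8% of all genes above 0 and a median of -0.005 (figure of levels in each library). That count moved with single libraries: it was 2 of 7 without wild-type replicate 2 and 4 of 7 without KO replicate 1, but 7 of 7 without KO replicate 3 or without wild-type replicate 1. Without wild-type replicate 1 the median of the 7 was 0.22, and 2 of the 7 had an unadjusted p under 0.05 in edgeR (Smc1b, 0.0204, and Stag3, 0.0332; adjusted p 0.511 and 0.552), against 8.35% of all genes. Wild-type replicate 3 was the library with the epididymis and rete markers. Without that library the log2 fold change was 0.28 for Rad21l (0.14 with it), 0.16 for Smc1b (0.15 with it) and -0.06 for Rec8 (-0.04 with it). The value was 0.03 for Stag3 (0.07 with it), 0.10 for Hormad1 (0.18 with it), 0.06 for Hormad2 (0.11 with it) and 0.02 for Trip13 (0.03 with it). Without KO replicate 2, the library with the highest Leydig cell markers, the values were 0.27 for Rad21l, 0.36 for Hormad1 and 0.26 for Hormad2. They were 0.23 for Smc1b, 0.16 for Stag3, 0.06 for Trip13 and -0.03 for Rec8. Markers of meiotic stage had fold changes of a similar size or larger. The 6 leptotene and zygotene markers were all above 0, with a median of 0.14 (0.20 with the block). Without the block 0 of 6 had an unadjusted p under 0.05 in edgeR, against 2.07% of all genes. With the block 4 of 6 did so, against 7.48% of all genes, and 0 passed after adjustment. The 5 tested pachytene markers were all below 0, with a median of -0.29 and sums of 172, 117 and 123 CPM in KO replicates 1, 2 and 3, against 239, 104 and 115 CPM in wild-type replicates 1, 2 and 3, where wild-type replicate 1 stood apart; 0 of 5 had an unadjusted p under 0.05 with or without the block. The part of these stages in the members' fold changes was not tested.

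**Figure D1:**
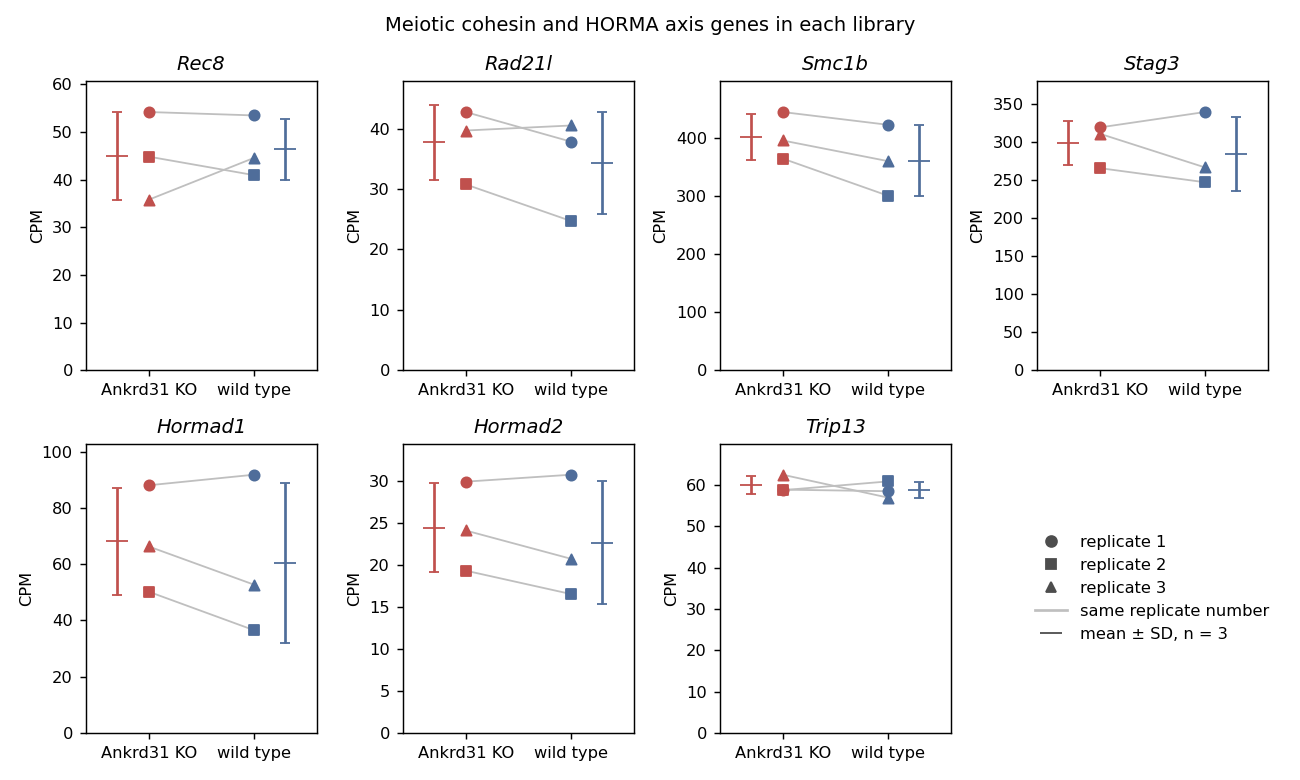
CPM of each gene (vertical axes, starting at 0) in the 3 Ankrd31 KO libraries (left) and the 3 wild-type libraries (right), with symbols for the replicate number, grey lines joining libraries of the same number, and bars for the mean ± SD of each genotype. The genotypes overlap in every panel, the libraries numbered 1 are the 2 highest for 5 of the 7 genes, and Trip13 is nearly flat.

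Smc1b, which encodes the meiotic SMC1 protein, was the most abundant of the 7. It had 445, 365 and 396 CPM in KO replicates 1, 2 and 3, against 423, 301 and 360 CPM in wild-type replicates 1, 2 and 3. KO libraries averaged 402 ± 40.4 CPM and wild-type libraries 361 ± 61.1 CPM (SD, n = 3 each), with the lowest value in wild-type replicate 2. The log2 fold change was 0.15 ± 0.12 (SE), with a 95% interval of -0.13 to 0.43, which corresponds to 0.916 to 1.35 fold (edgeR adjusted p = 1). Smc1b was the single gene of the 7 that was higher in KO in all 3 pairs of libraries with the same replicate number, by 0.07, 0.28 and 0.14 on the log2 scale, as were 13.9% of all genes. With the replicate number as a block its log2 fold change was 0.16 ± 0.05 (interval 0.06 to 0.26), with an edgeR unadjusted p of 0.00439 and an adjusted p of 0.431. With the block, edgeR called 8 of all genes (0.0443%) and 0 of the 7.

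Stag3, the meiotic STAG subunit, had 319, 266 and 311 CPM in KO replicates 1, 2 and 3, against 339, 247 and 267 CPM in wild-type replicates 1, 2 and 3. The highest value was in wild-type replicate 1 and the lowest in wild-type replicate 2, so the KO libraries lay inside the wild-type range. Its log2 fold change was 0.07 ± 0.12, with an interval of -0.21 to 0.35 (edgeR adjusted p = 1). The difference between genotypes changed sign between pairs, at -0.09, 0.10 and 0.22 in pairs 1, 2 and 3.

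The 2 kleisin genes did not follow each other from library to library. Rec8, whose product holds sister chromatids together through meiosis, had 54.2, 44.8 and 35.8 CPM in KO replicates 1, 2 and 3, against 53.5, 40.9 and 44.5 CPM in wild-type replicates 1, 2 and 3. Rad21l, whose product acts in early prophase, had 42.8, 30.8 and 39.7 CPM in the same KO libraries and 37.9, 24.7 and 40.5 CPM in the same wild-type libraries. Rec8 was lowest in KO replicate 3, a library in which Rad21l exceeded its own level in 3 of the other 5. The log2 fold change was -0.04 ± 0.16 for Rec8 (interval -0.40 to 0.32) and 0.14 ± 0.20 for Rad21l (interval -0.33 to 0.61), each with an edgeR adjusted p of 1. In pair 3 Rec8 stood at -0.32 on the log2 scale, while in pairs 1 and 2 it stood at 0.02 and 0.13.

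Hormad1 varied the most of the 7 genes within each genotype. It had 88.1, 50.2 and 66.3 CPM in KO replicates 1, 2 and 3, against 91.8, 36.5 and 52.7 CPM in wild-type replicates 1, 2 and 3. The coefficient of variation (SD over mean) was 27.8% in KO and 47.1% in wild type, and the 6 libraries spanned a 2.51-fold range, against a median of 1.28-fold over all genes. The libraries numbered 1 were the highest and those numbered 2 the lowest in both genotypes. Its log2 fold change of 0.18 ± 0.41 had an interval of -0.88 to 1.24, so a change from 0.542 to 2.36 fold lay inside it (edgeR adjusted p = 1). With the block the estimate was 0.23 ± 0.10 (edgeR adjusted p = 0.673), with pair values of -0.06, 0.46 and 0.33. An alternative added after the values were seen used the libraries numbered 2 and 3 alone. There the blocked edgeR fit called Hormad1 at 0.40 (adjusted p = 0.0443). That fit rests on 2 libraries per genotype, called 63 genes in all (0.348%), and called none of the other 6. In it, 4 of the 7 had an unadjusted p under 0.05 in edgeR, against 1819 of 18104 genes. The axis gene Sycp3 (0.38) and the synaptonemal complex gene Sycp1 (0.34) were among the 63 called. The 63 were not limited to such genes, and some were lower in KO. Among them were Postn (-0.73), Col1a1 (-0.30) and the noncoding RNA gene Rmrp (1.18).

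Hormad2, which marks unsynapsed axes for silencing and checkpoint control, ran in parallel with Hormad1 at a lower level. It had 29.9, 19.3 and 24.1 CPM in KO replicates 1, 2 and 3, against 30.7, 16.5 and 20.7 CPM in wild-type replicates 1, 2 and 3. The libraries fell in the same order as for Hormad1 in each genotype. Its log2 fold change was 0.11 ± 0.25, with an interval of -0.50 to 0.72 (edgeR adjusted p = 1).

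Trip13 was the flattest of the 7. It had 58.9, 58.7 and 62.5 CPM in KO replicates 1, 2 and 3, against 58.5, 60.9 and 57.0 CPM in wild-type replicates 1, 2 and 3, a 1.10-fold range over all 6 libraries. KO libraries averaged 60.0 ± 2.12 CPM and wild-type libraries 58.8 ± 1.97 CPM (SD, n = 3 each). The log2 fold change of 0.03 ± 0.06 had an interval of -0.11 to 0.18, which leaves room for 0.924 to 1.13 fold (edgeR adjusted p = 1). Without the block the interval was narrowest for Trip13 and widest for Hormad1; with the block it was narrowest for Smc1b and again widest for Hormad1 (figure of fold changes).

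**Figure D2:**
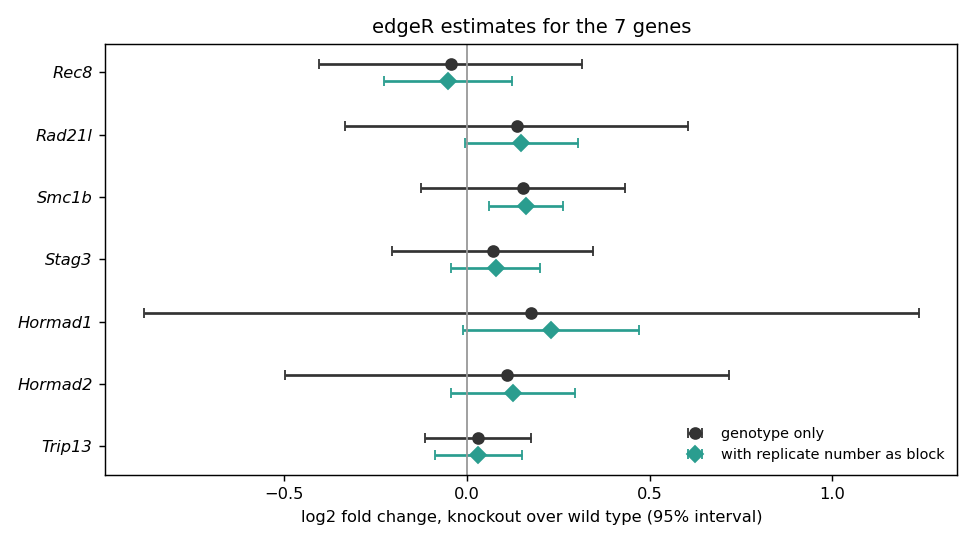
edgeR log2 fold changes (KO over wild type, horizontal axis) with 95% intervals for the 7 genes, without the replicate number (black circles) and with it as a block (green diamonds). The intervals without the block span 0 for all 7 genes and are widest for Hormad1; with the block the interval of Smc1b alone lies above 0, with an adjusted p of 0.431.

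Per kilobase of exon, which allows levels of different genes to be compared, the order of mean levels was Smc1b, Stag3, Hormad1, Rad21l, Trip13, Rec8 and Hormad2. Smc1b stood at 99.5 ± 10.01 CPM per kb in KO and 89.5 ± 15.1 in wild type (SD, n = 3 each), higher than 97.7% of tested genes, and in all 6 libraries above every value of Stag3. Stag3 stood at 52.1 ± 5.02 CPM per kb in KO and 49.6 ± 8.49 in wild type, and Hormad1 at 39.4 ± 10.98 and 34.9 ± 16.4. Stag3 exceeded Hormad1 in 6 of 6 libraries although their ranges overlapped. Rad21l was at 22.7 ± 3.75 in KO and 20.7 ± 5.10 in wild type, and Trip13 at 17.8 ± 0.628 and 17.4 ± 0.583; the first was higher in 5 of 6 libraries. Trip13 exceeded Rec8 (16.3 ± 3.35 in KO and 16.9 ± 2.35 in wild type) in 4 of 6, so these neighbours did not differ beyond their spread. Hormad2 was the lowest in every library, at 8.94 ± 1.94 CPM per kb in KO and 8.29 ± 2.67 in wild type.

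In whole-testis RNA per kilobase, Smc1b exceeded Smc1a, and Rec8 and Rad21l lay below Rad21, in both genotypes (figure of cohesin subunits). The ubiquitous subunits are shared by germ and somatic cells, so ratios to them are not the balance of subunits within any 1 cell type. The ratio of Smc1b to Smc1a per kilobase was 6.07, 4.59 and 5.29 in KO replicates 1, 2 and 3, and 5.75, 3.92 and 4.73 in wild-type replicates 1, 2 and 3. The ratio of Stag3 to Stag1 and Stag2 summed was 1.05 to 1.28 in KO and 0.977 to 1.38 in wild type. Rec8 stood at 0.130 ± 0.037 of the level of Rad21 in KO and 0.136 ± 0.028 in wild type, and Rad21l at 0.180 ± 0.041 and 0.167 ± 0.046 (SD, n = 3 each). Rad21 itself, the kleisin of all dividing cells, was the most abundant subunit gene at 127 ± 9.94 CPM per kb in KO and 125 ± 7.58 in wild type, while Smc3, shared by mitotic and meiotic rings, was at 59.3 ± 3.38 and 56.5 ± 2.62. None of the 4 ratios separated the genotypes. The log2 difference (KO minus wild type) was -0.09 for Rec8 to Rad21, 0.12 for Rad21l to Rad21, 0.16 for Smc1b to Smc1a and 0.03 for Stag3 to Stag1 plus Stag2. In two-sided exact permutation tests over samples p was 0.8, 0.7, 0.5 and 0.9 in that order, and 0.9 for each after Benjamini-Hochberg adjustment over the 4 ratios; 3 against 3 libraries cannot go below 0.1. The ratio of Smc1b to Smc1a was higher in KO in 3 of 3 same-number pairs, by 0.08, 0.23 and 0.16 on the log2 scale, where sign flips over the pairs give an exact p of 0.25, the smallest they can give.

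**Figure D3:**
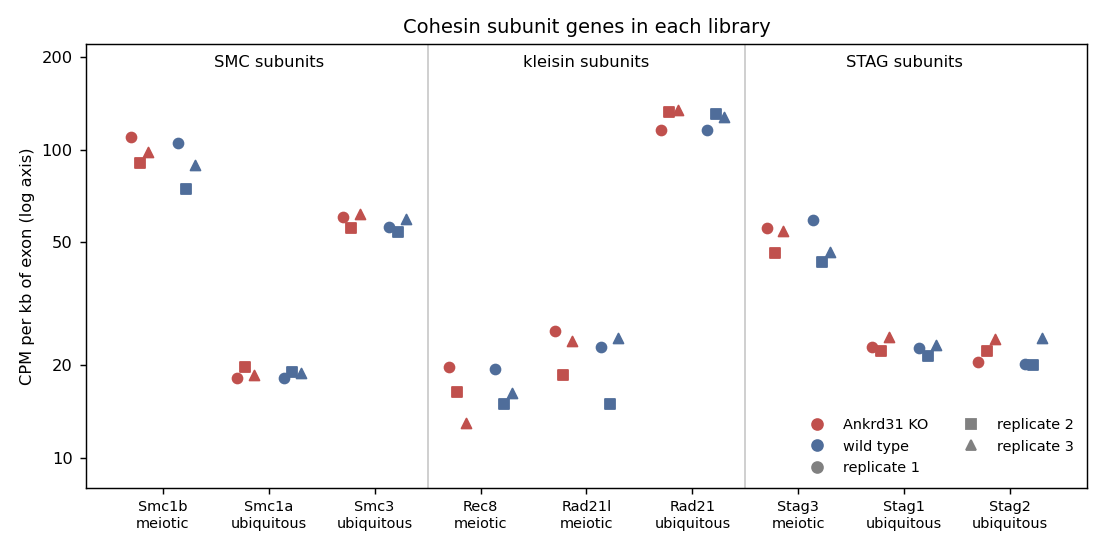
CPM per kilobase of exon (log axis) of the meiotic and ubiquitous cohesin subunit genes in each Ankrd31 KO library (red, left of each pair) and each wild-type library (blue, right), with symbols for the replicate number. Smc1b lies above Smc1a and Rad21 above Rec8 and Rad21l in all 6 libraries, with the genotypes side by side.

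The levels of 6 of the 7 genes went with the replicate number rather than with the genotype. The libraries numbered 1, 1 KO and 1 wild type, were the 2 highest of the 6 for Rec8, Smc1b, Stag3, Hormad1 and Hormad2, a pattern found in 14.6% of all genes, and wild-type replicate 2 was the lowest for Rad21l, Smc1b, Stag3, Hormad1 and Hormad2, as it was for 20.9% of all genes. On the log2 scale, the mean of the libraries numbered 1 exceeded that of the other 4 by 0.84 for Hormad1 (1.78-fold) and by 0.60 for Hormad2 (1.51-fold). It exceeded it by 0.38 for Rec8, 0.29 for Smc1b, 0.28 for Stag3 and 0.27 for Rad21l, and differed by -0.03 for Trip13. Of the variation over the 6 libraries, the replicate number took 92.2% for Hormad2, 87.7% for Hormad1, 85.6% for Rad21l, 79.3% for Stag3, 77.6% for Rec8 and 75.0% for Smc1b, but 7.76% for Trip13; the median over all genes was 57.3%. The genotype took 1.77% (Rec8) to 19.6% (Smc1b), against a median of 9.63%. The replicate number has more levels than the genotype, so its share tends to be larger even without an effect. The labels do not say what the numbers stand for.

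Smc1b, Stag3, Hormad1 and Hormad2, whose promoters are printed above, varied together with Pearson correlations of 0.915 to 0.996 between their log2 CPM over the 6 libraries. Over the 15 pairs among the 6 genes other than Trip13 the correlation ran from 0.32, between Rec8 and Rad21l, to 0.996, between Hormad1 and Hormad2. Trip13 correlated with the other 6 at -0.68 to 0.04. These values share the same 6 libraries and describe them only.

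Markers of germ cell stage moved with the replicate number as well (figure of gene lists). The leptotene and zygotene markers Prdm9, Dmc1, Spo11, Meiob, Zcwpw1 and Tex15 were all higher in the libraries numbered 1, with a median log2 difference of 0.46, and 5 of the 6 were above the other libraries of their genotype in both KO and wild type, as were 19.5% of all genes. Their summed level was 809 to 988 CPM in KO and 695 to 974 CPM in wild type. Pachytene markers had a median difference of 0.76 (4 of 5 tested higher). Pan germ cell markers stood at 0.16, undifferentiated spermatogonia at -0.22 (sums of 263 to 298 CPM in KO and 256 to 313 CPM in wild type) and Sertoli cells at -0.07. Relative to the summed pan germ cell markers of the same library, the libraries numbered 1 still stood 0.64 above the others for Hormad1 and 0.40 for Hormad2, against 0.08 to 0.18 for the 4 cohesin genes and -0.22 for Trip13. The part of cell composition in the members' levels was not tested.

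**Figure D4:**
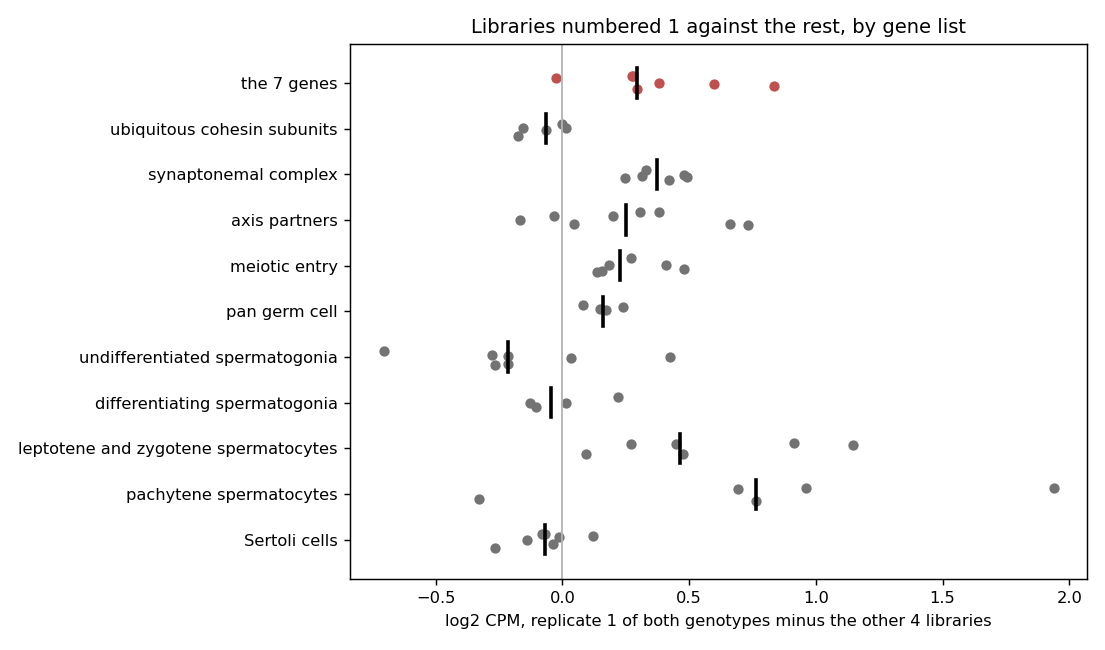
Difference in log2 CPM between the libraries numbered 1 (1 KO and 1 wild type) and the other 4 libraries for each tested gene (points, spread vertically for legibility) of the 7 described genes and of 10 other lists, with black bars at the medians. The medians are 0.29 for the 7 genes, 0.37 for synaptonemal complex genes and 0.46 for leptotene and zygotene markers, against -0.07 for ubiquitous cohesin genes and -0.22 for undifferentiated spermatogonia.

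Over all 6 libraries, the other genes of the axis and of the cohesin cycle included 1 gene that passed edgeR's test, Ankrd31, and that with the block. Of the 5 ubiquitous cohesin genes, 5 had log2 fold changes above 0 (median 0.05) and 0 passed in edgeR with or without the block. Their estimates were 0.07 ± 0.07 for Smc3, 0.05 ± 0.06 for Stag1, 0.05 ± 0.09 for Stag2, 0.03 ± 0.08 for Rad21 and 0.01 ± 0.06 for Smc1a. Of 15 regulators that load, release, acetylate, protect or cleave cohesin, 11 were above 0 (median 0.04) and 0 passed. The acetyltransferase genes Esco1 and Esco2, with the smallest p, had 0.11 ± 0.09 and 0.10 ± 0.09. With the block, 1 of the 15 had an unadjusted p under 0.05 in edgeR, against 7.48% of all genes. Of 8 axis partners, 7 were above 0 (median 0.12) and 0 passed without the block; Ankrd31 had -0.84 ± 0.17 and passed with the block (-0.82 ± 0.07, edgeR adjusted p = 0.00505), and the other 7 did not. Mei4, which encodes a partner of REC114 in break formation, had 9.15, 11.1 and 10.9 CPM in KO replicates 1, 2 and 3, against 8.15, 8.22 and 8.90 CPM in wild-type replicates 1, 2 and 3. Every KO library lay above every wild-type library, with a log2 fold change of 0.30 ± 0.12 (edgeR unadjusted p 0.0334 and adjusted p 1; 0.0183 and 0.577 with the block). Over all genes, 3.09% had every KO library above every wild-type library. For Rec114 the genotypes all but touched, at 13.828 CPM in KO replicate 2 and 13.8237 CPM in wild-type replicate 3. It had 13.8 to 14.2 CPM in KO and 11.7 to 13.8 CPM in wild type, with a log2 fold change of 0.11 ± 0.10 (edgeR adjusted p 1). The axis core genes Sycp2 and Sycp3 had 0.18 ± 0.36 and 0.18 ± 0.31, with errors near the 0.41 of Hormad1, and Ccdc36, which encodes the HORMAD1 partner IHO1, had 0.12 ± 0.10.

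All 6 synaptonemal complex genes were above 0 (median 0.13) and 0 passed with or without the block. Syce2 had 0.11 ± 0.10 and 4930447C04Rik, the gene of the central element protein SIX6OS1, 0.16 ± 0.15. In edgeR, 0 of the 6 had an unadjusted p under 0.05 without the block and 3 of 6 with it. Of all genes, 7.48% did so with the block. Of the other HORMA domain genes and the TRIP13 adaptor gene, 3 of 5 were above 0 (median 0.01) and 0 passed; the autophagy gene Atg13 had 0.11 ± 0.07 and Mad2l1bp, whose product p31comet brings MAD2 to TRIP13, 0.10 ± 0.12. Of 6 meiotic entry genes, 5 were above 0 (median 0.09) and 0 passed with or without the block. The TFIID subunit gene Taf4b had 0.17 ± 0.10 and the RNA helicase gene Ythdc2 0.17 ± 0.16, while Stra8, the regulator of meiotic initiation, had -0.01 ± 0.08. Here too the edgeR unadjusted p lay under 0.05 for 0 of 6 without the block and 3 of 6 with it, against 7.48% of all genes with it. Of 5 genes for repressors that keep meiotic genes silent in other cells, 1 was above 0 (median -0.01) and 0 passed; L3mbtl2 had 0.03 ± 0.06 and Pcgf6 -0.05 ± 0.11, and E2f6 itself had 46.6, 52.8 and 51.7 CPM in KO replicates 1, 2 and 3, against 48.1, 53.5 and 51.6 CPM in wild-type replicates 1, 2 and 3.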

How the data were processed

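The table of counts per gene is the authors' own and was deposited without normalization. Its length column, per the file headers the summed exon bases of a gene and thus another unit than the counts, gave levels per kilobase. The submitters' processing notes name bcl2fastq 2.19.1, GSNAP, featureCounts 1.6.0 and mm10; how strand and multiply mapping reads were handled is not stated there, and the kit was strand-specific per the labels' protocols. Spike-in rows (92, with 1 count in all) were left out, and 49412 of 49671 gene rows matched GENCODE M21. Members, lists and tests were chosen with earlier results of these data known.

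Groups follow the genotype in the labels. The test was edgeR 4.0.16 in R 4.3.3 (filterByExpr, TMM factors, robust quasi-likelihood F test, two-sided, Benjamini-Hochberg adjustment over 18040 genes, threshold 0.05). It was also run on simulated data. These held no effect of the replicate number, so they do not check the fits under such an effect. Log2 CPM used a prior count of 2, and ratios exact permutations in SciPy 1.17.1. Same-numbered KO and wild-type libraries deviated together from their group means (r = 0.42, 0.26 and 0.28 for numbers 1, 2 and 3; limit 0.1), so a blocked version of the test stands beside the unblocked one wherever it changes a count; the labels give no reason for the pairing. No library repeated another of its group (chi-square over its degrees of freedom 7.35 to 13.0). The design text names 3 mice of each genotype but ties no library to a mouse, and p-values measure the spread between these samples. Alternatives were the replicate block, DESeq2 1.42.0, voom in limma 3.58.1, other scalings and filters, and fits without some libraries. The text names Ankrd31, the ubiquitous cohesin genes, the 2 genes of each other pathway list with the smallest p, and the 3 genes most like each member (1 of those for Rec8 is not reported here). Sycp1, Sycp2, Sycp3, Rec114, Ccdc36, Stra8, E2f6, Rn7sk, Gm22513, Postn, Col1a1, Rmrp and some markers were named after their values were seen. The other markers are given as sums.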

Additional observations from a re-analysis of the deposited data

How the results depend on the processing

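Of the 7 genes, 1 was called under 1 alternative (Hormad1, 0.395, in the blocked fit without both libraries numbered 1) and 0 under the other 19; fits without both libraries of a number were added after the data were seen. The number of genes called was 0 in the unblocked edgeR fit, 8 with the replicate block, 2 with DESeq2 (Ankrd31 and Rn7sk), 1 with no low-count filter (the noncoding RNA gene Gm22513), and with the block 63 without both libraries numbered 1 and 57 without both numbered 2; it was 0 in every leave-out of 1 library. Over all 6 libraries the block changed no call and no sign of a member; for the ratios pairing alters the p alone, since the mean difference is the same.

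Other scalings and filters kept every member's sign. Leaving out 1 library each in turn gave log2 fold changes of -0.201 to 0.0972 for Rec8, -0.0535 to 0.279 for Rad21l, 0.0378 to 0.282 for Smc1b, -0.0207 to 0.218 for Stag3, -0.0838 to 0.613 for Hormad1, -0.0746 to 0.393 for Hormad2 and 0.00196 to 0.0573 for Trip13. The lowest values of Rad21l, Smc1b, Stag3, Hormad1 and Hormad2 were those without wild-type replicate 2. Without both libraries numbered 3, Rec8 was at 0.0697 (0.0743 with the block), Stag3 at -0.00341 and Trip13 at -0.0204 (-0.0202 with the block). The log2 ratio differences ranged from -0.297 to 0.107 for Rec8 to Rad21, -0.129 to 0.291 for Rad21l to Rad21, 0.0179 to 0.295 for Smc1b to Smc1a and -0.0726 to 0.178 for Stag3 to Stag1 plus Stag2. The cause of these sign changes was not tested. Members had 376 to 9771 counts per library.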

Other observations

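The genes whose log2 CPM followed each member most closely over the 6 libraries, among 12646 others averaging at least 5 CPM, are given as a description, with the Pearson correlation over 6 libraries that all members share. Hormad1 was followed by Dtl (the substrate receptor of a ubiquitin ligase), S100pbp and Asb1 at 0.999, 0.999 and 0.998, and Hormad2 by the germ cell dipeptidase gene Dpep3, S100pbp and Dtl at 0.997, 0.996 and 0.996. Smc1b was followed by Stxbp5l, Cdkl2 and Ero1lb at 0.997, 0.996 and 0.995, and Stag3 by Gm10010, Acad11 and Zup1 at 0.998, 0.996 and 0.991. Rec8 was followed by St7 and Slc1a4 at 0.995 and 0.994, and Rad21l by Smpd3, Hprt and Relch at 0.994, 0.988 and 0.987. Trip13 was followed by 4933434E20Rik, Fbxo45 and Gm4784 at 0.980, 0.972 and 0.963. The number of genes that correlated above 0.95 was 268 for Hormad1, 250 for Hormad2, 247 for Smc1b and 162 for Stag3, against 61 for Rad21l, 47 for Rec8 and 8 for Trip13.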
